A study of Mus musculus with 16 samples.

Results

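The genes described here were 9 markers of tissue-resident macrophages: the surface receptor genes Lyve1, Folr2 and Vsig4, the genes of the secreted proteins Fcna, Sepp1 and Mamdc2, the enzyme genes Cbr2 and Enpep, and the transcription factor gene Maf. They were picked by symbol from a table of 24421 gene symbols, in which Sepp1 is the older name of Selenop, and all 9 were found and passed the filter on low counts that left 13649 genes. RNA was sequenced from F4/80-positive macrophages of mouse muscle in 16 libraries. The 4 groups of 4 libraries were WT normal muscle, GLUD1 KO normal muscle, WT CTX-injected muscle and GLUD1 KO CTX-injected muscle, the injected muscle being taken when damage peaked. CTX is the only name the labels give for the injected agent. How and in which cells Glud1 was deleted, the days after injection and the ages of the mice are not given in the sources used here. Whether each library had its own mouse is not stated, and the p-values therefore reflect variation among libraries that may be technical. Both sexes occurred among the normal libraries of each genotype (below), so the libraries of those groups did not all come from the same mouse.

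Most tissues hold macrophages that live there for long periods beside monocytes that arrive from blood after damage. In muscle, heart and other organs a perivascular and interstitial resident population is known for the hyaluronan receptor encoded by Lyve1 and the folate receptor encoded by Folr2, and it takes up particles, iron and dying cells. MAF is a transcription factor that marks and maintains differentiated macrophages.

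The members had been chosen with the injury results of these data known. The change from normal to CTX-injected muscle is therefore given as a description without a test, and the genotype comparisons are tested.

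Promoter sequence was at hand for 6 of the 9 genes (Folr2, Fcna, Cbr2, Sepp1, Vsig4 and Enpep, 9 start sites in all), from RefSeq on GRCm38.p6. The 250 bases before each start site were searched on both strands for TGCTGAC (a MAF half-site), TGANTCA (the AP-1 site) and GAGGAAG (a core bound by PU.1, the ETS factor of macrophages). Of 32851 promoter windows of this length, 3.81% held the MAF half-site, 6.75% the AP-1 site and 10.6% the PU.1 core. The 3 windows below are shown because Fcna and Enpep kept a far smaller part of their level in CTX-injected muscle than Cbr2 did. Matches are in capitals.
Fcna (chr2:25627975-25628224, minus strand): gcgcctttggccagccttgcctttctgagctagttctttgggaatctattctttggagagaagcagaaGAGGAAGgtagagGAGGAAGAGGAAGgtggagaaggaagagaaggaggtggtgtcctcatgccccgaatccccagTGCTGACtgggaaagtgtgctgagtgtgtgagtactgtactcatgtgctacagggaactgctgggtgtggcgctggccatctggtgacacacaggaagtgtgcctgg
Cbr2 (chr11:120732022-120732271, minus strand): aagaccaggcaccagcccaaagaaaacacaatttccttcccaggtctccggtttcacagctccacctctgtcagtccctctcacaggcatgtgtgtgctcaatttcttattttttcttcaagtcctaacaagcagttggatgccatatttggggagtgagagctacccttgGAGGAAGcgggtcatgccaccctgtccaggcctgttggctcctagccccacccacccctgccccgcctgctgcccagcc
Enpep (chr3:129332750-129332999, minus strand): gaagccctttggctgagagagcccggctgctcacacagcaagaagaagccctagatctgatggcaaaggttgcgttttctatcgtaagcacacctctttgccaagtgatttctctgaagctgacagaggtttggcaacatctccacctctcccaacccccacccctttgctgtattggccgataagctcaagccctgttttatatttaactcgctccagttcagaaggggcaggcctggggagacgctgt
Fcna held 3 PU.1 cores, of which the last 2 share 1 base, and 1 MAF half-site. Cbr2 held 1 PU.1 core, and Enpep held none of the 3 motifs. Among the other windows, 2 overlapping ones of Sepp1 held the same PU.1 core and 1 of Folr2 held the AP-1 site. These are matches of letters and not binding sites.

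Library totals ran from 17051892 to 23097420 counts. TMM factors were 1.13 to 1.34 in normal and 0.76 to 0.87 in CTX-injected muscle, so the scaling moves every injury value. With library totals alone the median log2 change of all genes in WT was -0.77 in place of -0.15, and rising genes were 18.9% of the calls in place of 45.8%. Xist and Y-linked genes marked 3 libraries as female, all from normal muscle (2 WT, numbered 5 and 6, and 1 KO, numbered 5). The macrophage markers Adgre1 (509 to 1254 CPM), Csf1r (1572 to 3720 CPM) and Cd68 (505 to 1738 CPM) were present in every library. Counts over the whole Glud1 gene ranged over 209.8 to 292 CPM (counts scaled by library size) without injury and over 327 to 391 CPM with it, both genotypes together, and do not check the KO label without the deleted part.

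Levels of different genes are compared per kilobase of exon (RPKM from TMM-scaled counts). In WT normal muscle Sepp1 stood first at 1193 ± 339 RPKM (SD, n = 4 here and for all levels below). Cbr2 (319.7 ± 99.6 RPKM), Folr2 (279 ± 92.0), Fcna (239 ± 84.6) and Lyve1 (135 ± 45.6) followed, each overlapping the next in range. A gap separated Lyve1 from a lower set of Enpep (19.4 ± 8.47 RPKM), Maf (10.7 ± 2.30), Mamdc2 (9.85 ± 2.08) and Vsig4 (9.66 ± 2.62), again with overlapping neighbours. KO normal muscle gave the same order. In WT CTX-injected muscle Sepp1 (242 ± 58.5 RPKM), Cbr2 (139 ± 47.1) and Folr2 (56.2 ± 17.9) still led. Maf now came next at 6.50 ± 0.77 RPKM, overlapping in range with Lyve1 (5.06 ± 2.94), and the order was the same in KO.

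**Figure D1:**
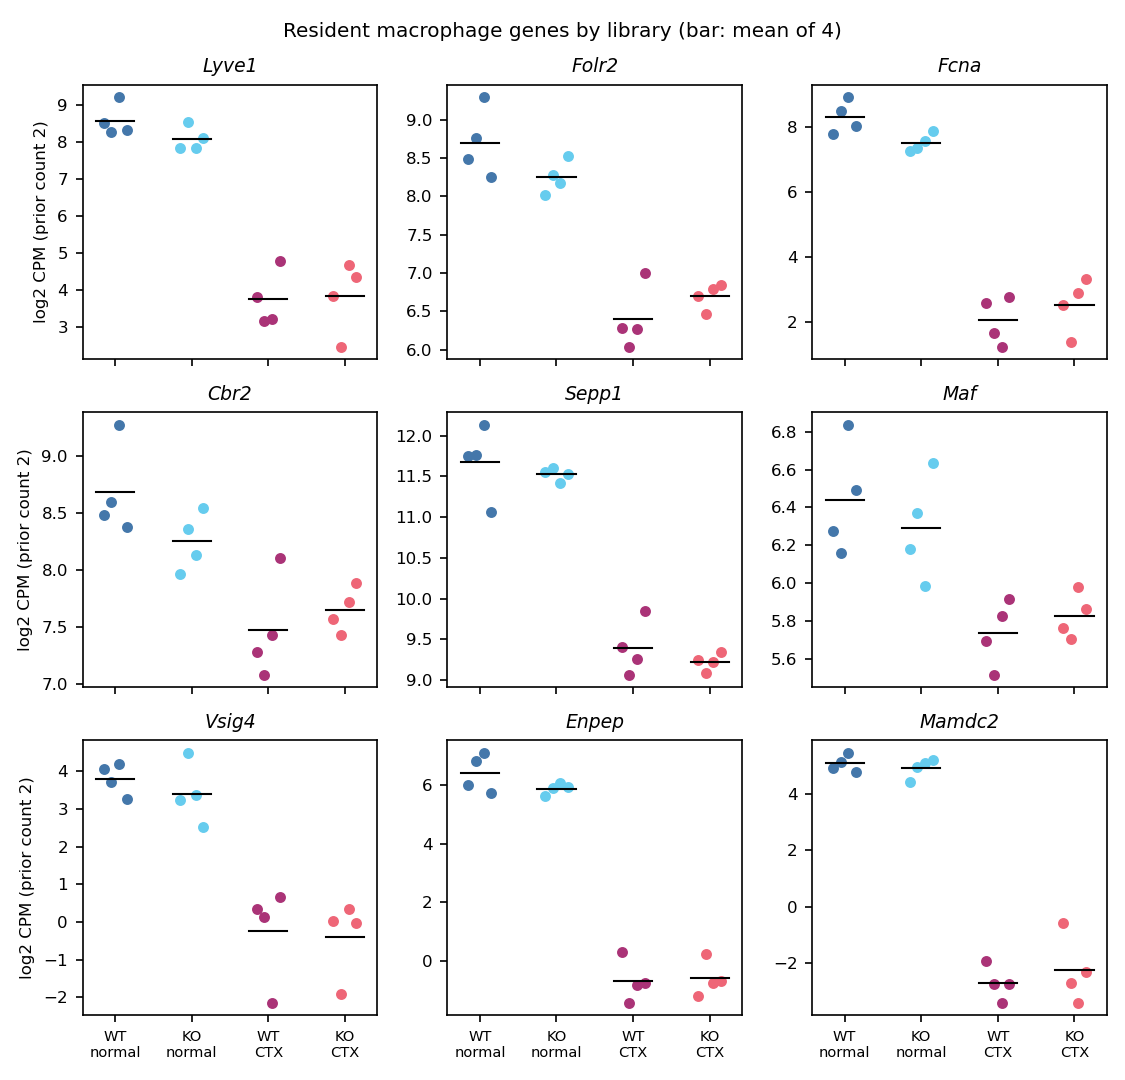
Level of each of the 9 genes as log2 CPM (library-size-scaled counts, prior count 2) in 4 groups of 4 libraries, 1 point per library and a bar at the group mean, with a separate vertical axis for each gene. In every panel the points of CTX-injected muscle lie below those of normal muscle of the same genotype.

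Lyve1, Folr2 and Vsig4 encode receptors. Lyve1 (chromosome 7, 110850607 to 110863239, minus strand, GRCm38) binds hyaluronan and also marks lymphatic endothelium. Its level in WT normal libraries 2, 3, 5 and 6 was 362, 306, 589.7 and 315 CPM, and in KO normal libraries 1, 2, 3 and 5 it was 227, 372, 228 and 274 CPM. After CTX it stood at 13.9, 8.87, 9.17 and 27.2 CPM in WT libraries 1 to 4 and at 14.1, 5.38, 25.3 and 20.1 CPM in KO libraries 1 to 4. Every injured library lay below every normal one, and the injured libraries spread over a wider ratio than the normal ones in both genotypes. The mean in CTX-injected muscle was 3.75% of normal in WT (log2 -4.73, SE 0.46) and 5.88% in KO (-4.09, SE 0.45).

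Folr2 (chromosome 7, 101839988 to 101857194, minus strand) encodes folate receptor beta. It measured 359, 436, 629 and 304 CPM in the WT normal libraries and 259, 310.1, 288 and 370.1 CPM in the KO ones. The injured values were 77.9, 65.5, 76.9 and 128 CPM in WT and 104, 88.4, 110.3 and 115 CPM in KO. Folr2 thus kept a larger part of its level than Lyve1, 20.1% in WT (log2 -2.31, SE 0.23) and 34.0% in KO (-1.55, SE 0.22).

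Vsig4 (chromosome X, 96247203 to 96293438, minus strand) encodes a receptor for complement C3 fragments. Per kilobase it was the scarcest of the receptors. It lay at 16.7, 12.99, 18.1 and 9.49 CPM in WT and 9.29, 22.6, 10.4 and 5.66 CPM in KO normal muscle. In CTX-injected muscle it was at 1.19, 1.004, 0.13 and 1.48 CPM in WT and 0.92, 0.17, 1.17 and 0.88 CPM in KO, from 2 to 27 reads per library. These means were 6.65% of normal in WT and 6.57% in KO. From pooled counts they were 6.83% (95% exact counting interval 5.28% to 8.72%) and 6.15% (4.63% to 8.03%).

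Fcna, Sepp1 and Mamdc2 encode secreted proteins. Fcna (chromosome 2, 25624666 to 25628030, minus strand) encodes ficolin A, a lectin that starts the complement lectin pathway. Its WT normal libraries were at 217, 357, 479 and 261 CPM and its KO normal libraries at 151, 164, 187 and 234 CPM, so only KO library 5 reached into the WT range. After CTX the WT libraries were at 5.95, 3.07, 2.26 and 6.65 CPM and the KO libraries at 5.64, 2.55, 7.27 and 9.87 CPM. The level left was 1.36% in WT (log2 -6.19, SE 0.43) and 3.44% in KO (-4.85, SE 0.40).

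Sepp1 (Selenop, chromosome 15, 3268547 to 3280508, plus strand) encodes selenoprotein P, a carrier of selenium. WT normal libraries held 3444, 3486, 4493 and 2144 CPM, and KO normal libraries held 3007, 3104, 2738 and 2958 CPM, a spread of 28.4% of the mean in WT and 5.25% in KO. Injured muscle gave 679.9, 536, 613 and 921 CPM in WT and 609, 544, 598 and 653 CPM in KO. Both genotypes kept nearly the same share, 20.3% in WT and 20.4% in KO (log2 -2.30 in each, SE 0.20). Ccdc152, which overlaps Sepp1 on the opposite strand, was at 0.17 to 1.44 CPM. Folr2, Fcna, Maf, Enpep and Mamdc2 also overlap annotated antisense, noncoding or pseudogene models on the other strand, and the labels do not state how reads in such overlaps were counted.

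Mamdc2 (chromosome 19, 23302609 to 23448442, minus strand) encodes a secreted protein with MAM domains. In normal muscle it lay at 30.2, 34.6, 43.9 and 27.5 CPM in WT and 21.1, 30.9, 33.8 and 36.8 CPM in KO. WT libraries 1 to 4 from CTX-injected muscle held 3, 1, 0 and 1 reads and KO libraries 1 to 4 held 10, 1, 0 and 2 reads. The pooled reads were 0.21% of the normal level in WT (counting interval 0.069% to 0.497%) and 0.59% in KO (0.314% to 1.01%). The fitted log2 values were -8.76 in WT and -7.36 in KO. They moved to -9.57 without WT CTX library 1 and to -8.98 without KO CTX library 1, the libraries with most reads.

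Cbr2 and Enpep encode enzymes. Cbr2 (chromosome 11, 120729489 to 120732114, minus strand) encodes a carbonyl reductase. Its levels in WT were 359, 387, 619 and 332 CPM in normal and 155, 135, 172 and 275 CPM in CTX-injected muscle. In KO they were 249.9, 328, 281 and 374 CPM in normal and 189.8, 172, 211 and 236 CPM in CTX-injected muscle. Within each genotype the CTX-injected and normal libraries did not overlap, but KO CTX library 4 came close to KO normal library 1. Cbr2 kept 43.5% of its level in WT (log2 -1.20, SE 0.23) and 65.6% in KO (-0.61, SE 0.23).

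Enpep (chromosome 3, 129269175 to 129332720, minus strand) encodes an aminopeptidase that cleaves angiotensin II and is also known from pericytes. WT normal libraries were at 64.2, 111, 138 and 52.7 CPM and KO normal libraries at 49.1, 59.2, 66.1 and 61.4 CPM. The injured WT libraries held 20, 5, 7 and 9 reads (0.28 to 1.13 CPM) and the injured KO libraries held 6, 19, 9 and 10 reads (0.35 to 1.08 CPM). The level left was 0.65% in WT (log2 -7.25, SE 0.40) and 1.04% in KO (-6.58, SE 0.39).

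Maf (chromosome 8, 115682942 to 115707794, minus strand) encodes the transcription factor c-MAF. In WT it was at 77.4, 71.4, 114 and 89.9 CPM in normal and 51.7, 45.7, 56.6 and 60.4 CPM in CTX-injected muscle. In KO it was at 72.5, 82.7, 63.2 and 99.4 CPM in normal and 54.3, 52.1, 62.98 and 58.0 CPM in CTX-injected muscle. The groups just failed to overlap in KO, where KO CTX library 3 and KO normal library 3 nearly met. Maf kept most of its level, 60.7% in WT (log2 -0.72, SE 0.15) and 71.5% in KO (-0.48, SE 0.15), and it had the smallest change of the 9 genes in both genotypes.

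**Figure D2:**
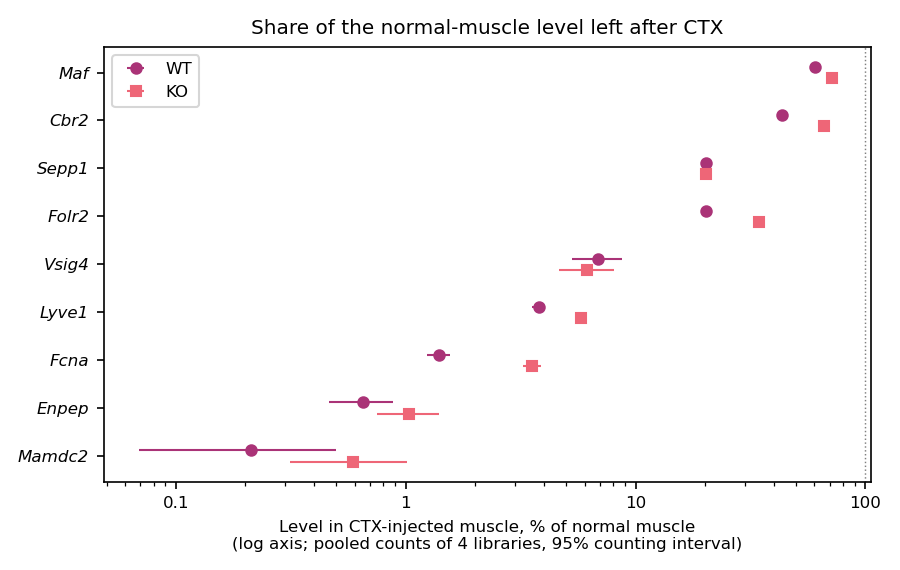
Level in CTX-injected muscle as a percentage of the level in normal muscle, on a log axis, for WT (circles) and KO (squares), from the pooled counts of 4 libraries a group with 95% counting intervals that leave out the spread between libraries. From bottom to top the WT values run from 0.21% for Mamdc2 to 60.3% for Maf.

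The 9 genes thus spanned a wide range of change in the same libraries. All 9 were lower in every CTX-injected library than in every normal library of the same genotype, as were 34.9% of the 13649 genes in WT and 35.5% in KO. The median log2 difference of the 9 was -3.88 in WT and -3.92 in KO, beside -0.15 and -0.16 over all genes tested. By edgeR's quasi-likelihood fit 39.4% of all genes were called lower in WT and 40.2% in KO (72.7% and 73.6% in either direction), and no reading is made from the members' calls, since the contrast was known when they were chosen. With library totals as the only scaling the Maf values were -1.33 in WT and -1.09 in KO, and those of Cbr2 were -1.80 and -1.21, so the share left of the least changed members depended on the scaling while the direction did not. In sorted bulk RNA, fewer cells of a type and less RNA per cell cannot be told apart.

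General macrophage genes and markers of other cell types moved in the same comparison. Of 12 general macrophage genes 7 were called higher and 5 lower by edgeR in WT, and 6 and 5 in KO. With library totals only these counts were 4 and 5 in each genotype. Under TMM scaling Csf1r fell (log2 -0.86 in WT and -0.79 in KO), and Adgre1 (0.49 and 0.73) and Cd68 (1.37 and 1.48) rose. Of 9 monocyte genes 5 were called higher by edgeR and none lower in each genotype, but with library totals only 4 were called higher and 2 lower. Their summed level was 2799 to 4224 CPM in WT normal and 11646 to 14818 CPM in WT CTX-injected muscle. All 8 mural cell genes fell in both genotypes, and the median of their sum was 58.1 CPM in normal and 19.8 CPM in CTX-injected muscle of WT. Of 5 tested lymphatic endothelial genes 4 fell and 1, Pdpn, rose. The list without Pdpn summed to between 10.5 and 26.2 CPM in the WT normal libraries and to at most 1.43 CPM in the injured WT ones, and Ccl21a had no read in any library. Among 8 blood endothelial genes 6 fell in WT and 7 in KO, and fibroblast genes gave the same counts. All 10 tested T and NK cell genes fell in both genotypes, and of 8 dendritic cell genes 7 fell and 1 rose, the rise in KO not being called with library totals only. All 12 immediate early genes, a list that stands for no cell type, also fell in both genotypes. Of 7 tested muscle fibre genes 6 fell in WT and 7 in KO. The part of these cell types in the values of Lyve1, Enpep and the other members was not tested.

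Libraries of 1 group differed from each other in a way that several members shared. WT normal library 5, from a female, had the highest level of all 9 genes in its group, whereas it was the highest library for 19% of 13339 genes with a mean of at least 10 counts. WT normal library 6, also from a female, was the lowest for 6 of the 9. In CTX-injected muscle WT library 4 was the highest for 7 of 9, the exceptions being Enpep and Mamdc2, and KO library 2 was the lowest for 7 of 9, again without Enpep and Mamdc2. Those libraries were the highest and lowest for 30.8% and 25.1% of all such genes.

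**Figure D3:**
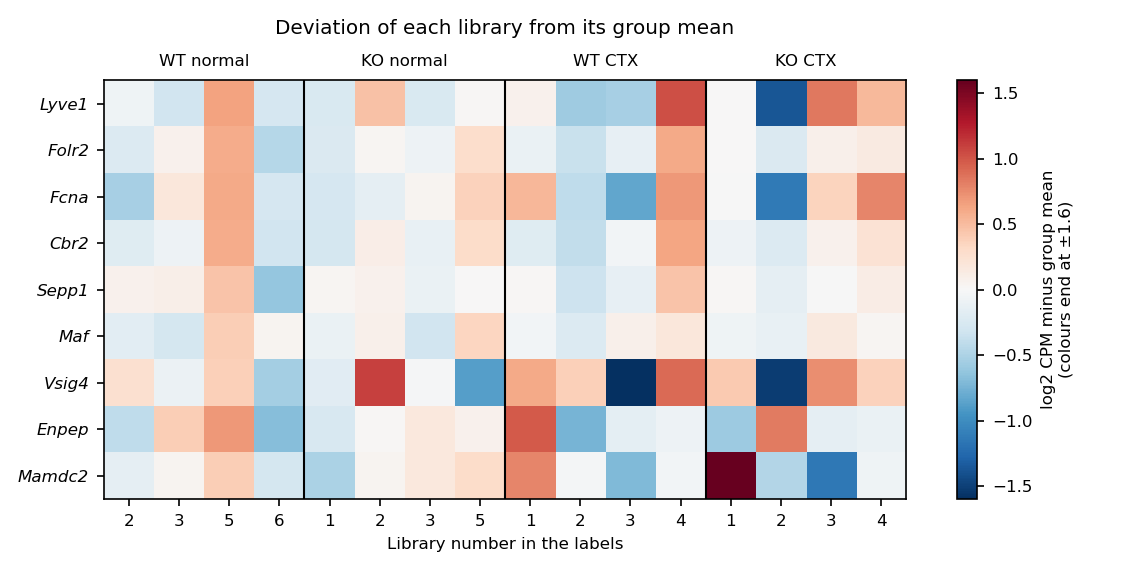
Deviation of each library from the mean of its group, as log2 CPM, for the 9 genes in rows and the 16 libraries in columns, with colours ending at 1.6 in either direction. The column of WT normal library 5 is above the mean in all 9 rows, and WT CTX library 4 is above it for Lyve1, Folr2, Fcna, Cbr2, Sepp1, Maf and Vsig4.

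The comparison of KO with WT in normal muscle asked whether loss of Glud1 altered these genes without injury. All 9 had lower fitted values in KO, with a median log2 difference of -0.46 beside 0.00 over all genes. The medians of 35 other resident macrophage genes (-0.25), 12 general macrophage genes (-0.18) and 4 relatives of Maf (-0.40) were also below 0. Lists of some other cell types lay above 0, as given in the next paragraph. The lowest of the 9 was Fcna, with a mean of 184 ± 36.6 CPM for KO against 329 ± 116 CPM for WT (log2 -0.84, SE 0.34, 95% interval -1.55 to -0.12). Enpep (-0.63, SE 0.27), Lyve1 (-0.52, SE 0.39) and Folr2 (-0.49, SE 0.22) followed, and Maf (-0.15) and Mamdc2 (-0.15) were nearest to 0. None of the 9 passed edgeR's quasi-likelihood test (adjusted p = 0.991 for each), where 0% of all genes were called. By edgeR 3 of 9 (Fcna, Folr2 and Enpep) had an unadjusted p under 0.05, as did 390 of all 13649 genes. DESeq2 also called 0 of 9, with 4 at that unadjusted level, and it called 0 of 19055 genes. The ranges of KO and WT overlapped for all 9, where 1.08% of all genes had ranges apart. An exact two-sided permutation test, whose smallest p is 0.0286 with 4 against 4 libraries, gave p = 0.0571 for Fcna. That test exchanges all libraries freely and takes no account of the pairing by number, which was inferred from the data. The edgeR and DESeq2 fits above take no account of it either. An edgeR fit with a replicate block called 0 of 9, with 5 at an unadjusted p under 0.05, and it called 0 of 13649 genes. For DESeq2 and the block fit the all-gene count at the unadjusted level is not given. Those counts of members therefore have no share beside them.

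These differences rested in part on 1 library. Without WT normal library 5 the median of the 9 was -0.20, 7 of 9 lay below 0, none had an unadjusted p under 0.05, and Fcna was at -0.58. With male libraries only, 2 in WT and 3 in KO, the median was -0.25. All 9 lay below 0 there, the nearest at -0.0032, and none had an unadjusted p under 0.05. In normal muscle the blood endothelial list summed to 84.0 to 135 CPM in WT and 122 to 202 CPM in KO and the mural list to 48.1 to 69.6 CPM in WT and 56.5 to 117 CPM in KO, with no gene of either called. The T and NK cell list summed to 84.9 to 203 CPM in WT and 139 to 321 CPM in KO (median log2 difference of its genes 1.14), and the dendritic cell list to 425 to 607 CPM in WT and 520.5 to 818 CPM in KO (0.66), again with none called. Their part in the genotype values was not tested.

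Enpep and Mamdc2 had so few reads in CTX-injected muscle that they passed the low-count filter only through normal muscle. Of the other 7 genes 2 lay below 0 in KO against WT and 5 above it in CTX-injected muscle, with a median log2 difference of 0.13 beside -0.02 over all genes. None of the 9 passed edgeR's test (adjusted p from 0.940 to 1), where 0.00733% of all genes were called. None had an unadjusted p under 0.05 by edgeR, as 910 of all 13649 genes did, or by DESeq2. DESeq2 called 0 of 9, where it called 17 of 13882 genes higher and 26 lower. The 95% intervals were -0.24 to 0.41 for Maf, -0.60 to 0.21 for Sepp1, -0.20 to 0.73 for Folr2 and -0.34 to 0.61 for Cbr2. They were wider for the genes of few reads, as for Mamdc2 (1.25, interval -0.80 to 3.30), which turned to -0.37 without KO CTX library 1. When single libraries were left out, Folr2 ran from 0.15 to 0.51, Cbr2 from 0.01 to 0.39 and Maf from 0.02 to 0.15. Fcna ran from 0.19 to 0.75, Lyve1 from -0.17 to 0.61, Sepp1 from -0.30 to -0.02 and Vsig4 from -0.63 to 0.03. Lyve1 averaged 16.2 ± 8.55 CPM for KO against 14.8 ± 8.57 CPM for WT, and all 9 ranges overlapped between genotypes, where those of 5.7% of all genes did not. The median log2 difference was -0.82 for the blood endothelial, -0.75 for the mural and -0.69 for the fibroblast list, with no gene called, and their part in the members' values was not tested.

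The interaction asked whether the injury difference itself depended on genotype. Leaving aside Enpep and Mamdc2, it was above 0 for 6 of 7 genes, that is a smaller fitted difference in KO, with a median of 0.59 on the log2 scale beside -0.01 over all genes. The largest values among these 7 were those of Fcna (1.33, SE 0.51) and Folr2 (0.76, SE 0.31), and Sepp1 was at 0.01 (95% interval -0.57 to 0.58). Mamdc2, with few reads in CTX-injected muscle, was at 1.40 (SE 1.01). None of the 9 passed edgeR's test (adjusted p from 0.872 to 1), where 0% of all genes were called. Fcna and Folr2 had an unadjusted p under 0.05 by edgeR, as did 646 of all 13649 genes. DESeq2 called 0 of 9, where it called 9 of 13512 genes higher and 40 lower. By DESeq2 2 members were at that unadjusted level, for which its all-gene count is not given. When single libraries were left out, the lowest interaction values were 1.03 for Fcna, 0.53 for Folr2, 0.36 for Cbr2 and 0.35 for Lyve1. Those of Maf, Sepp1 and Vsig4 were 0.09, -0.15 and -0.38. For Folr2, Cbr2, Maf and Sepp1 the library left out was WT normal library 5. Mamdc2 was at -0.22 without KO CTX library 1. This comparison uses the same libraries as the others, so it is not a separate measurement. The interaction medians of the blood endothelial (-1.36), mural (-1.40) and fibroblast (-1.001) lists lay below 0 with no gene called, and their part in the members' values was not tested.

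**Figure D4:**
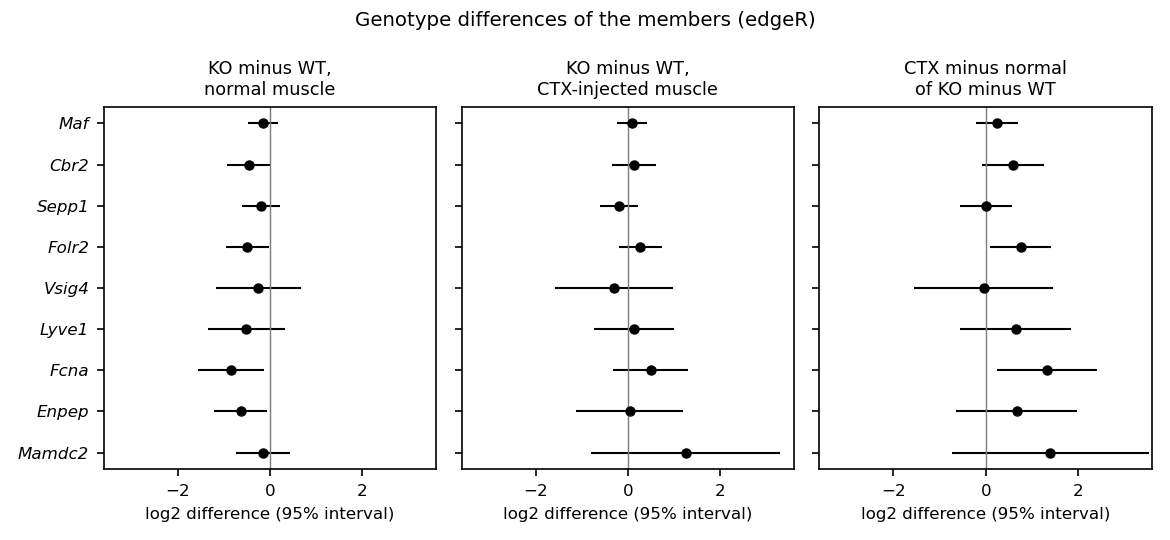
Log2 difference with 95% interval from the edgeR fit for KO minus WT in normal muscle, KO minus WT in CTX-injected muscle, and the difference between these (interaction). All 9 points are left of 0 in the first panel. In the third 8 of 9 are right of 0, or 6 of 7 without Enpep and Mamdc2, which were scarcely read in CTX-injected muscle. No adjusted p was under 0.05.

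A list of 36 other genes of resident macrophages was set beside the members, of which 35 were tested. It too was chosen with earlier results of these data known. In WT 27 fell with injury, 3 rose and 5 were not called by edgeR, against 39.4% and 33.3% of all genes called lower and higher, and the median log2 difference was -2.01. In KO 25 fell, 5 rose and 5 were not called, with a median of -1.52. The largest falls in WT were in Cd209d, a C-type lectin gene (129 ± 54.9 to 1.74 ± 1.58 CPM, log2 -6.17), Hpgd, whose enzyme breaks down prostaglandins (183 ± 38.0 to 2.99 ± 1.85 CPM, -5.91), Fxyd2, a subunit gene of the sodium pump (67.8 ± 28.6 to 1.181 ± 0.53 CPM, -5.82), and the lectin gene Cd209b (-5.70).

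The 3 rises in WT were in Pf4, a platelet-type chemokine gene (405 ± 107 to 1506 ± 234 CPM, log2 1.89), Ninj1, whose protein ruptures membranes of dying cells (463 ± 105 to 1301 ± 103 CPM, 1.49), and Id3, a transcription regulator gene (61.5 ± 5.54 to 84.6 ± 16.8 CPM, 0.46). Pf4 (1.29) and Ninj1 (0.88) stayed higher with library totals as the only scaling, where Id3 was at -0.17 and was not called. No gene of the list was called in a genotype comparison or in the interaction. Its median log2 difference for KO against WT was -0.25 in normal and 0.07 in CTX-injected muscle, and its interaction median was 0.25.

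The relatives of Maf described here did not all move as it did. The small MAF genes Maff (65.0 ± 21.0 to 131.6 ± 42.1 CPM, log2 1.02) and Mafg (92.0 ± 30.5 to 172 ± 17.9 CPM, 0.90), which lack an activation domain, rose in WT by edgeR (adjusted p = 0.00495 and 0.0159). They rose in KO too, but with library totals only their WT values were 0.41 and 0.30 and were not called. Mafk was not called in either genotype (-0.20 and 0.03) and was lower with library totals only (-0.80 and -0.56, both called). Mafa was called lower in WT (-2.01) at 0.66 ± 0.30 to 0.15 ± 0.12 CPM, and Nrl had no read in any library. Among these 4 tested relatives none was called between genotypes.

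**Figure D5:**
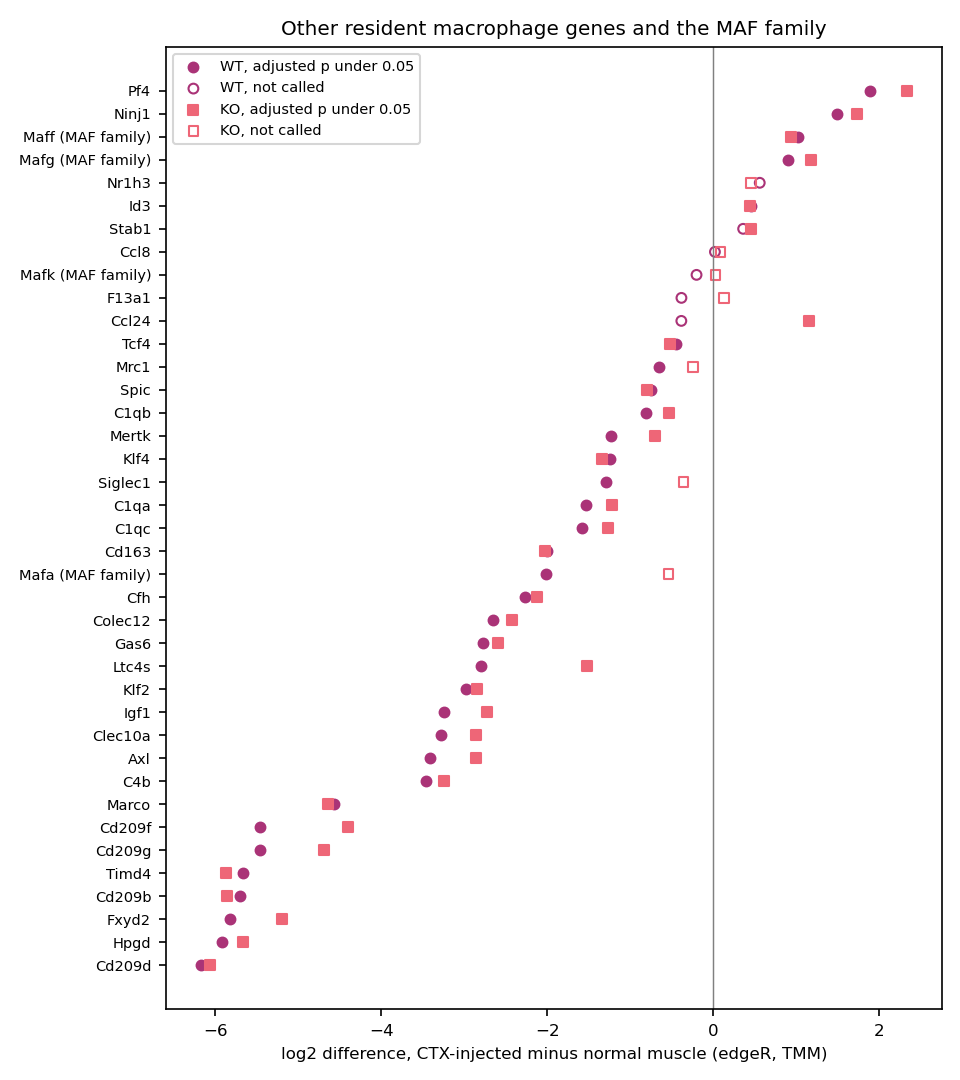
Log2 difference between CTX-injected and normal muscle for 35 other resident macrophage genes and 4 MAF family genes, in WT (circles) and KO (squares), filled where the edgeR adjusted p was under 0.05. Values in WT run from -6.17 for Cd209d to 1.89 for Pf4.

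Likeness of pattern was measured as the root mean square difference of gene-centred log2 CPM over the 16 libraries, among 8479 genes with a mean log2 CPM of at least 3 in WT normal muscle. The genes nearest to the mean profile of the 9 members were Cd81 (0.21), a tetraspanin gene, Bmp2 (0.28), Tnfsf13b (0.28), Fgfr1 (0.29) and Pltp (0.29). Cd81 went from 411 ± 60.2 to 27.5 ± 6.88 CPM in WT and from 358 ± 25.1 to 33.3 ± 8.12 CPM in KO. The nearest gene to each member was Dnm1 for Lyve1 (0.34), Timp2 for Folr2 (0.19), A4galt for Vsig4 (0.60), Mgl2 for Fcna (0.31), Sgpp1 for Sepp1 (0.19), Gbp2b for Mamdc2 (0.80), Ehd4 for Cbr2 (0.19), Tmod1 for Enpep (0.54) and Cd37 for Maf (0.13). Within the members, the closest pairs were Cbr2 with Maf (0.27), Folr2 with Sepp1 (0.30) and Folr2 with Cbr2 (0.52), and the farthest was Maf with Mamdc2 (3.51). The distances include the difference between the 8 normal and the 8 injured libraries, which all genes named here share.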

How the data were processed

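The deposited values were whole-number read counts per gene symbol, not normalized, 1 column per library. The submitters' processing notes name FastQC 0.11.7, cutadapt 1.18, HISAT2 2.1.0 and featureCounts of Subread 1.6.2 with mm10. The annotation and the treatment of multi-mapping or overlapping reads are not given in the sources used here. The labels' protocols name SMART-Seq V4, a kit that keeps no strand and no molecular identifiers. Copies made by amplification are thus counted as separate reads. The counting intervals treat reads as independent, and they leave out amplification and the spread between libraries.

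Counts were filtered with edgeR's filterByExpr, scaled with TMM factors and tested by quasi-likelihood in edgeR 4.0.16 (R 4.3.3). The model held a term for each group, all 16 libraries entered it, and p-values were adjusted by Benjamini-Hochberg over 13649 genes (threshold 0.05). SE is the log2 difference divided by the square root of F. The fit was tested on simulated data. Counts of the marker lists under other scalings, and members' counts without those scarcely read in injured muscle, were added after seeing the data. CPM used TMM-scaled totals, and gene positions and exon lengths came from GENCODE M21 (GRCm38). The text names all 9 members, MAF relatives, the largest called changes of the related list and the genes of nearest pattern. One gene that this rule names is not reported here and was left out of the MAF family counts. Members and lists were chosen with earlier results of these data known. In normal muscle, libraries of the same number deviated together (r = 0.644, 0.567 and 0.244 over genes for numbers 2, 3 and 5), so the numbers were taken to pair them there, from the data and not from a label. Some differently numbered libraries correlated as strongly (WT 6 with KO 5, both female, r = 0.588, and WT 2 with KO 1, r = 0.467).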

Additional observations from a re-analysis of the deposited data

How the results depend on the processing

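Alternatives were RLE size factors, library totals only, DESeq2 1.42.0, no low-count filter, only the groups compared, male libraries only, a replicate block, and leaving out each library. In all of them 0 of 9 members were called in either genotype comparison or, where it was fitted, in the interaction, with fewer members tested in injured muscle (7) when only those groups were fitted. The replicate block gave a median of -0.49 for KO against WT in normal muscle (smallest edgeR adjusted p = 0.731). There 5 of 9 had an unadjusted p under 0.05, without an all-gene count for this fit, and 0 of 13649 genes were called. In CTX-injected muscle, where same-numbered libraries were not paired (r from -0.124 to 0.0046), 2 genes were called higher and 2 lower. The median there was 0.09 over all 9, with Enpep and Mamdc2 scarcely read. With that block the median injury difference in WT was -4.79, where only numbers 2 and 3 occur in both groups. Leaving out single libraries gave -4.16 to -3.54 in WT and -4.17 to -3.41 in KO. With library totals only, 2 related or MAF-family genes rose in WT and 2 in KO, in place of 5 and 7. Depth limits Mamdc2, Enpep and Vsig4 in injured muscle.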

Other observations

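Close relatives of the members, chosen after the members' values were seen, were mostly scarce. Folr1, the neighbour and paralog of Folr2, had 8 reads in the 4 WT normal libraries together and 1 in the 4 KO normal ones, 0 in the WT CTX-injected ones and 3 in the KO CTX-injected ones. Fcnb, the ficolin gene of neutrophils and monocytes, was at 12.2 ± 12.3 CPM in WT normal muscle (n = 4) with a spread as large as its mean, and at 2.17 ± 0.80 CPM in WT CTX-injected muscle. The carbonyl reductase genes Cbr1 and Cbr3 differed in direction in WT under TMM scaling. Cbr1 fell from 12.3 ± 2.19 to 6.60 ± 1.53 CPM (log2 -0.90, edgeR adjusted p = 0.000183) and Cbr3 rose from 5.47 ± 1.31 to 10.5 ± 2.16 CPM (log2 0.93, edgeR adjusted p = 0.000579). With library totals only Cbr1 was at -1.52 and Cbr3 at 0.31, and Cbr3 was no longer called (edgeR adjusted p = 0.195).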
